A study of Homo sapiens with 22 samples.

Results

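The MYC, MAX and MXD network was followed here through its 9 genes, taken by symbol from the 26485 symbols of each count table, and all 9 symbols were found. They are MYC, MYCN and MYCL, their shared partner MAX, and the antagonists MXD1, MXD3, MXD4, MXI1 and MNT. The data were RNA sequencing counts of 22 libraries labelled as MDA-MB231, an established line of triple-negative breast cancer cells with the genotype given as WT, from 3 experiments on the deacetylase HDAC6.

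MYC proteins bind DNA only as dimers with MAX, and such dimers recruit acetyltransferases and raise the transcription of genes for ribosome assembly, nucleotide synthesis and growth. MXD1, MXD3, MXD4, MXI1 and MNT also pair with MAX on the same E-box sequences, but bring the SIN3 corepressor with class I histone deacetylases. The level of MYC relative to the antagonists is therefore used as a rough measure of which kind of dimer can form, and MYC is often highly expressed in triple-negative breast cancer.

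The first experiment compared NextA (n = 2), cells given the HDAC6 inhibitor Nexturastat A at 7.65 µM for 2 days, with Ctrl (n = 2), whose treatment label reads DMSO. The second compared lines with either of 2 short hairpins against HDAC6, shHDAC6-1 and shHDAC6-2 (n = 3 each), with a control hairpin, shCtrl (n = 3), at day 0. The last compared the HDAC6 inhibitors HPOB and Tubastatin A with the vehicle DMSO (n = 3 each) at day 2. The labels used here state no dose for HPOB or Tubastatin A, and the titles of the Tubastatin A libraries carry the letters TSA while their treatment label reads Tubastatin A. The labels do not say whether replicates were separate cultures, or whether each hairpin line was 1 clone or a pool. The p-values therefore measure the spread between these libraries, which may be technical.

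Libraries held 31238740 to 85942315 counts. Levels are given as CPM, the counts of a gene scaled to a common library size, here on one TMM scaling of all 22 libraries. This scaling assumes that most genes keep their level between libraries. Most genes differed between the control groups of different experiments, as given below. CPM compared across experiments thus rest on an assumption that may not hold there. In the hairpin experiment, HDAC6 mRNA stood at 11.8 and 11.2 CPM in shHDAC6-1 and at 11.5 and 12.9 CPM in shHDAC6-2, against 43.0 and 50.1 CPM in shCtrl, in replicates 1 and 2. In replicate 3 it stood at 11.4 CPM in shHDAC6-1 and 14.0 CPM in shHDAC6-2, against 26.1 CPM in shCtrl. The labels of the 2 hairpins matched the level of their target in every library.

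The libraries did not all look like one cell stock. CDKN2A is deleted in MDA-MB231. Its mRNA was found at 132 to 175 CPM in all 6 libraries of hairpin replicates 1 and 2, shCtrl among them. It stood at 8.84 and 29.1 CPM in shHDAC6-1 and shHDAC6-2 replicate 3, at 0 in shCtrl replicate 3 and in the HPOB, Tubastatin A and DMSO libraries, and at no more than 0.0320 CPM in NextA and Ctrl. IRS4 was at 303 to 640 CPM in those 6 libraries, 9.09 to 26.9 CPM in the hairpin lines of replicate 3 and 0 in the others. The sum of 5 epithelial markers was 245 to 365 CPM in those 6 libraries and 1207 to 3234 CPM in the others. The sum of 6 mesenchymal and basal-like markers was 670 to 800 CPM in those 6 libraries and 2041 to 2824 CPM in the others. Among them, CD44, a surface marker of this line, was at 18.9 to 21.9 CPM in replicates 1 and 2 of the hairpin experiment, and at 294 to 628 CPM in the other 16 libraries. KRT5 stayed under 1 CPM in all 22 libraries, and KRT14 did so outside hairpin replicate 3. ESR1 and PGR, the hormone receptors absent from triple-negative cells, stayed under 1 CPM in all 22 libraries. With ERBB2, the other receptor gene examined, their sum was 35.5 to 140 CPM, nearly all of it ERBB2. The sum of 5 fibroblast markers was 91.9 to 107.6 CPM in the 6 libraries and 4.40 to 31.1 CPM in the others. The sum of 5 leukocyte markers was 15.1 to 28.1 CPM in the 6 libraries and 91.9 to 425 CPM in the others, nearly all of it CD68, while the T cell gene CD3E stayed at no more than 0.155 CPM in all 22. In log2 CPM across 13218 genes, which are not independent replicates, shCtrl replicate 3 correlated with Ctrl at 0.960 and 0.969 and with shHDAC6-1 replicate 3 at 0.752. Replicates 1 and 2 of the hairpin experiment were therefore tested alone, and replicate 3 is described apart. Stocks below are the control groups Ctrl, DMSO and shCtrl replicates 1 and 2, and a difference between them cannot be told apart from other differences between their experiments.

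MYC was the most abundant network transcript per kilobase in every group, by a margin that differed between groups. Between genes, levels are given as CPM per kilobase (CPM/kb) of the longest annotated transcript. The order depends on this length. In plain CPM, MYC in Ctrl (44.9) was below MXD4 (71.1), MXI1 (55.4) and MAX (50.0). In shCtrl replicate 3, plain CPM put MYC (57.3) below MAX (58.4). In NextA, MYC stood at 79.8 CPM/kb ± 9.27 (SD, n = 2). In Ctrl, it stood at 18.96 CPM/kb ± 0.385 (SD, n = 2), next to MXD4 at 16.8, MXI1 at 16.0 and MAX at 15.9 CPM/kb. In shCtrl replicates 1 and 2, MYC stood at 191.8 CPM/kb ± 11.2 (SD, n = 2), with MXD4 next at 21.1 CPM/kb. In DMSO, MYC stood at 81.3 CPM/kb ± 2.64 (SD, n = 3), with MAX next at 17.8 CPM/kb. The smallest members differed by stock too. MYCN, best known from neuroblastoma, had no counts in Ctrl or DMSO and 246 and 361 counts in shCtrl replicates 1 and 2.

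**Figure D1:**
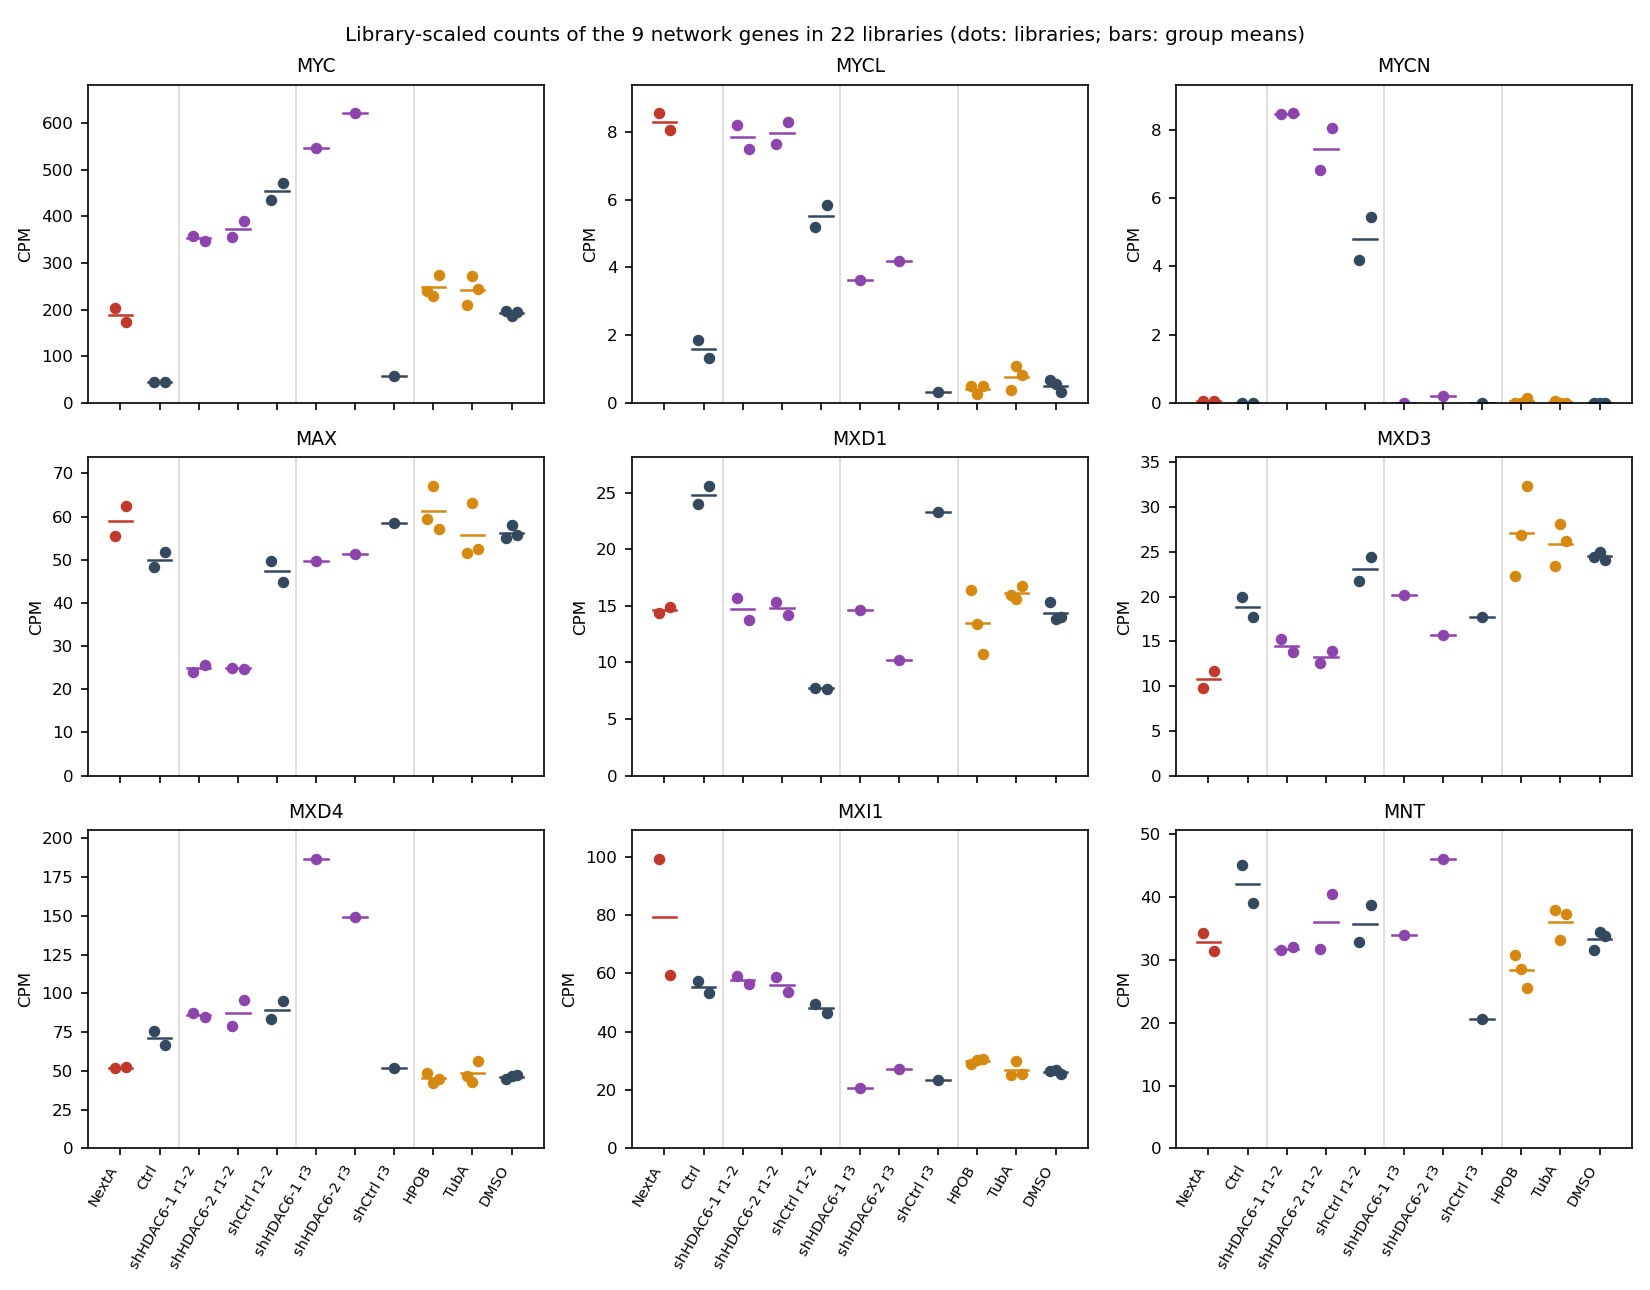
Level of each of the 9 network genes in each library, in CPM, with one panel a gene and the groups ordered by experiment (TubA, Tubastatin A; r, replicate). Points are libraries and bars are group means. MYC stood at 173 and 204 CPM in NextA, against 44.2 and 45.5 CPM in Ctrl, and MAX stood at 24.0 to 25.7 CPM in the hairpin lines of replicates 1 and 2, against 44.8 and 49.8 CPM in shCtrl.

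The balance was set as the summed level per kilobase of MYC, MYCN and MYCL over that of the 5 antagonists, and is a description with no test. MYC made up at least 96.3% of the MYC family sum in every library, so the numerator was nearly all MYC. The balance was 1.63 and 1.74 in NextA, against 0.341 and 0.383 in Ctrl, so by this measure antagonist transcripts exceeded MYC family transcripts in Ctrl and not in NextA. Its size depends on the transcript length used, and in plain CPM the 2 sides stood closer in NextA. Mean plain CPM there were 189 for MYC and 8.31 for MYCL. The antagonists stood at 79.3 (MXI1), 52.2 (MXD4), 32.8 (MNT), 14.6 (MXD1) and 10.8 (MXD3). The antagonist sum was 49.1 CPM/kb ± 7.83 in NextA and 53.9 CPM/kb ± 3.68 in Ctrl (SD, n = 2 each), and the libraries of the 2 groups overlapped in it. In replicates 1 and 2 the ratio was 2.94 and 2.97 in shHDAC6-1 and 3.08 and 3.11 in shHDAC6-2, against 3.63 and 3.66 in shCtrl. In replicate 3 it was 3.40 in shHDAC6-1 and 4.31 in shHDAC6-2, against 0.693 in shCtrl, and the antagonist sum was 68.4 CPM/kb in shHDAC6-1 and 61.1 CPM/kb in shHDAC6-2, against 35.1 CPM/kb in shCtrl. The ratio was 2.51 to 2.85 in HPOB and 2.28 to 2.84 in Tubastatin A, against 2.01 to 2.20 in DMSO. The shCtrl library of replicate 3 was the other library with a ratio under 1, beside Ctrl.

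**Figure D2:**
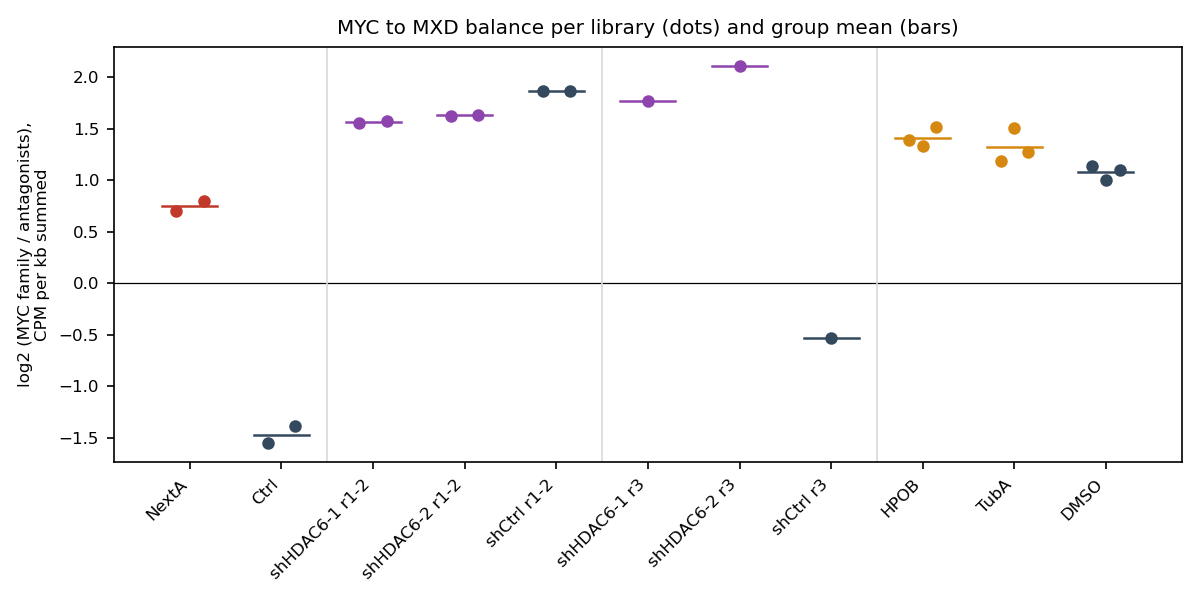
Log2 of the summed MYC, MYCN and MYCL level over the summed level of MXD1, MXD3, MXD4, MXI1 and MNT, both in CPM per kilobase, for each library (TubA, Tubastatin A; r, replicate). Points are libraries, bars are group means, and values under 0, where the antagonist sum is larger, were seen in Ctrl and in shCtrl replicate 3.

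Against MAX, the direction turned in hairpin replicates 1 and 2 and was kept in NextA. The MYC family sum per unit of MAX, both per kilobase, was 5.07 and 3.82 in NextA, against 1.26 and 1.196 in Ctrl. It was 20.7 and 18.7 in shHDAC6-1 and 19.5 and 21.8 in shHDAC6-2, against 11.9 and 14.3 in shCtrl, in replicates 1 and 2. The hairpin lines thus had a lower MYC to antagonist ratio and a higher MYC to MAX ratio than shCtrl, in each of the libraries of these replicates. In replicate 3 the MYC to MAX ratio was 14.7 in shHDAC6-1 and 16.2 in shHDAC6-2, against 1.31 in shCtrl. It was 4.56 to 6.39 in HPOB and 5.44 to 6.21 in Tubastatin A, against 4.27 to 4.80 in DMSO.

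The order of MYC mRNA by group mean was as follows. It was 621 CPM in shHDAC6-2 replicate 3 and 547 CPM in shHDAC6-1 replicate 3, with 1 library each. Below them came shCtrl replicates 1 and 2 at 454 CPM ± 26.5 (SD, n = 2), shHDAC6-2 at 372 CPM ± 24.6 (SD, n = 2) and shHDAC6-1 at 353 CPM ± 7.77 (SD, n = 2). HPOB stood at 247 CPM ± 23.1 (SD, n = 3), Tubastatin A at 242 CPM ± 30.9 (SD, n = 3), DMSO at 192 CPM ± 6.24 (SD, n = 3) and NextA at 189 CPM ± 21.9 (SD, n = 2). The lowest were shCtrl replicate 3 at 57.3 CPM (1 library) and Ctrl at 44.9 CPM ± 0.911 (SD, n = 2). Libraries overlapped between the neighbours shHDAC6-2 and shHDAC6-1, HPOB and Tubastatin A, and DMSO and NextA.

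The upstream sequences of 3 antagonist genes, MXD1, MXD3 and MXD4, are shown because their mRNA levels were lower together in NextA, and MNT because its window is the other member window with the E-box. The sequences are the 250 bases before the RefSeq start (GRCh38.p14), on the gene's own strand. Capitals mark the E-box CACGTG, which reads alike on both strands. The windows are MXD1 at chr2:69914859-69915108 (plus strand), MXD3 at chr5:177312753-177313002 (minus strand), MXD4 at chr4:2262110-2262359 (minus strand) and MNT at chr17:2401061-2401310 (minus strand).
MXD1: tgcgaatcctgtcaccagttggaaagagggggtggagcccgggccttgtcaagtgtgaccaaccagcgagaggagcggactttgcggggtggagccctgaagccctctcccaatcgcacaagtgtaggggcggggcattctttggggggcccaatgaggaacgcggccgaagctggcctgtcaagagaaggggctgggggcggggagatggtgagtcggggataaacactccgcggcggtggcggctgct
MXD3: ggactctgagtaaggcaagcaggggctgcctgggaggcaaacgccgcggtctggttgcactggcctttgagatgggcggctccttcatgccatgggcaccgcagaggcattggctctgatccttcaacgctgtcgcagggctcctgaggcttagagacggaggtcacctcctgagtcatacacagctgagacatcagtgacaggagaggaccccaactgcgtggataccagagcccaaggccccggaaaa
MXD4: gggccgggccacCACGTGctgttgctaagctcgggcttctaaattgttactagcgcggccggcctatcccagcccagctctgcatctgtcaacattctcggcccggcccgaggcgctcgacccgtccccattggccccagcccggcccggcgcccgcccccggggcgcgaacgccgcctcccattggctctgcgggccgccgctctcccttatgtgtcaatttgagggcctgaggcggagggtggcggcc
MNT: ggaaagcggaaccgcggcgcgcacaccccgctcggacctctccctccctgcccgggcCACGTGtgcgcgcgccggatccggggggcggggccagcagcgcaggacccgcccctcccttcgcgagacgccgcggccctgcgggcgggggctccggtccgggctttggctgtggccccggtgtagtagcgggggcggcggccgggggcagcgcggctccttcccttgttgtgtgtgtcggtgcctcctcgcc
The E-box began 238 bases before the MXD4 start and 193 bases before the MNT start. Of the 11 windows found for 8 members, 2 held it, against 6.345% of 35116 windows of the same length (2228). A match is a run of letters and does not show binding.

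Nexturastat A went with more MYC and MYCL mRNA and less MXD1, MXD3 and MXD4 mRNA. MYC, on chromosome 8 (GRCh38, 127735434 to 127741434, plus strand), stood at 204 and 173 CPM in NextA, against 44.2 and 45.5 CPM in Ctrl. Both NextA libraries were above both Ctrl libraries. In such bulk samples, a change in the share of cells that express a gene and a change in its RNA per cell cannot be told apart. With called meaning an adjusted p under 0.05 by edgeR, a count model fitted over all genes of an experiment, and with rose and fell kept for called genes, MYC rose 4.15-fold (95% interval 3.32 to 5.19; log2 fold change 2.05 ± 0.14 (SE), edgeR adjusted p = 0.000383). MYCL, the family member first found in small cell lung cancer, stood at 8.55 and 8.07 CPM in NextA, against 1.84 and 1.31 CPM in Ctrl. The groups did not overlap, and its level per kilobase was far under that of MYC. Its log2 fold change was 2.37 ± 0.26 (SE, edgeR adjusted p = 0.00165). MYCN had 4 and 4 counts in NextA, against 0 and 0 in Ctrl, and was too low to test.

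MXD1, an antagonist linked to terminal differentiation, stood at 14.3 and 14.9 CPM in NextA, against 24.0 and 25.6 CPM in Ctrl. It fell by 0.78 ± 0.15 (SE) on the log2 scale (edgeR adjusted p = 0.00904). MXD3, an antagonist found in cycling cells in the mouse, stood at 9.84 and 11.7 CPM in NextA, against 19.9 and 17.7 CPM in Ctrl. It fell by 0.83 ± 0.18 (SE) on the log2 scale (edgeR adjusted p = 0.0129). MXD4 stood at 52.1 and 52.3 CPM in NextA, against 75.7 and 66.6 CPM in Ctrl, and fell by 0.47 ± 0.13 (SE) on the log2 scale (edgeR adjusted p = 0.0287). In each of these 3 genes both NextA libraries lay below both Ctrl libraries.

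The other antagonists did not pass the test. MXI1 stood at 99.1 and 59.4 CPM in NextA, against 57.4 and 53.4 CPM in Ctrl, with a log2 fold change of 0.50 ± 0.24 (SE, edgeR adjusted p = 0.141). One NextA library was high and the other was close to Ctrl. MNT, the antagonist expressed in most cell types, stood at 34.2 and 31.4 CPM in NextA, against 45.1 and 39.1 CPM in Ctrl, with a log2 fold change of -0.38 ± 0.15 (SE, edgeR adjusted p = 0.0769). MAX stood at 55.4 and 62.5 CPM in NextA, against 48.2 and 51.8 CPM in Ctrl, with a log2 fold change of 0.22 ± 0.13 (SE, edgeR adjusted p = 0.234).

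In all, 5 of the 8 members tested were called in NextA against Ctrl, where 36.6% of 16678 genes were called. Of these, 2 members were higher, against 21.1% of genes, and 3 were lower, against 15.5%. With either Ctrl library left out, 2 members were called, MYC and MYCL, and the calls of MXD1, MXD3 and MXD4 were lost. MXD4 also lost its call under a minimum mean CPM of 5 and under total count scaling. MXI1 was called without NextA replicate 2. MNT was called without NextA replicate 1 and with trends on GC content and length removed. HDAC6 itself stood at 25.9 and 25.4 CPM in NextA, against 29.3 and 28.2 CPM in Ctrl, and was not called (log2 fold change -0.19, edgeR adjusted p = 0.328). The sum of the 5 fibroblast markers was 30.99 to 31.08 CPM in NextA, against 6.94 to 8.14 CPM in Ctrl, mostly from the collagen gene COL1A1. The epithelial sum was 2086 to 2651 CPM in NextA, against 1376 to 1448 CPM in Ctrl, and the leukocyte sum was 126 to 145 CPM in NextA, against 167 to 184 CPM in Ctrl. The mesenchymal and basal-like sum was 2041 to 2358 CPM in NextA, against 2730 to 2824 CPM in Ctrl. ESR1, PGR and ERBB2 together gave 35.5 to 46.5 CPM in NextA, against 79.8 to 85.5 CPM in Ctrl. The part of these in the changes was not tested.

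**Figure D3:**
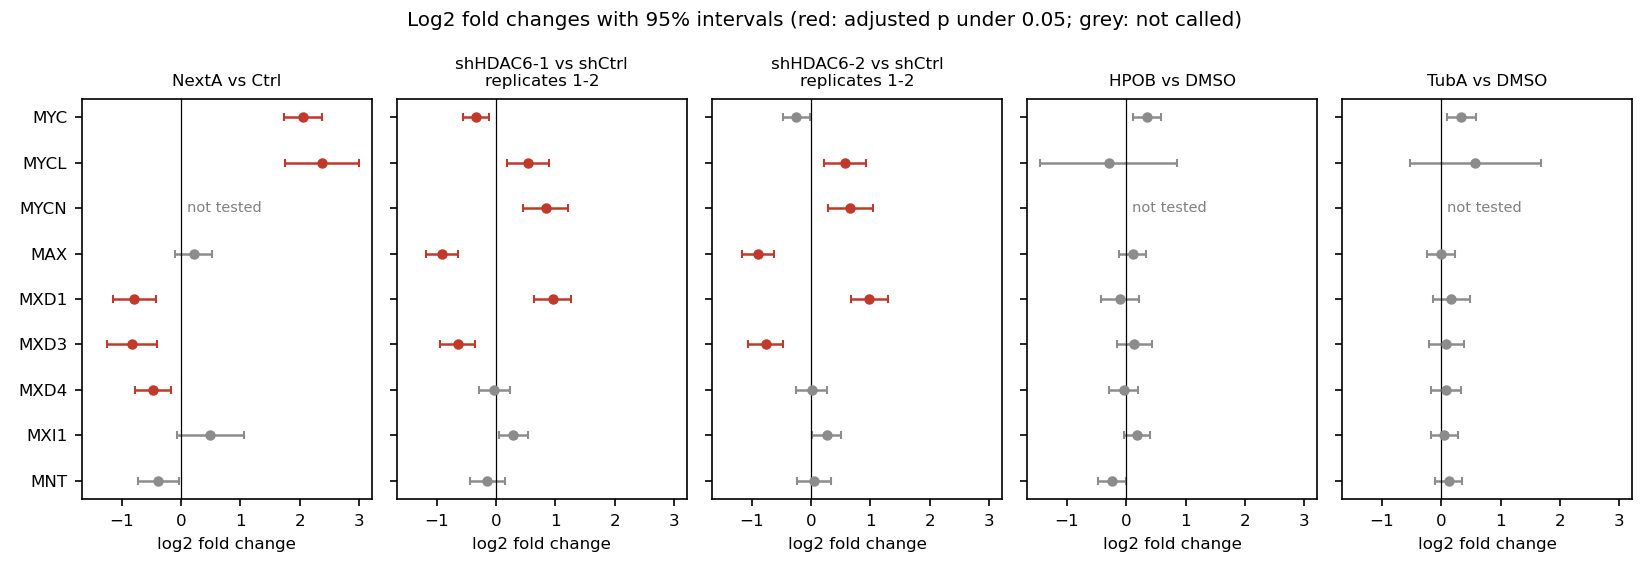
Log2 fold change of each network gene with its 95% interval, for NextA against Ctrl, shHDAC6-1 and shHDAC6-2 against shCtrl in replicates 1 and 2, and HPOB and Tubastatin A against DMSO. MYC was at 2.05 with NextA, at -0.34 and -0.25 with the hairpins and at 0.35 and 0.34 with HPOB and Tubastatin A.

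Genes around MYC and the extended network moved with Nexturastat A as follows. CASC11, a noncoding RNA gene beside MYC, had 35 counts in NextA and 0 in Ctrl, at least 11.5-fold higher against a floor of 3 counts over the Ctrl group. PVT1, a noncoding RNA gene next to MYC on the other side, stood at 19.3 and 17.1 CPM in NextA, against 8.76 and 9.57 CPM in Ctrl (log2 fold change 0.97 ± 0.18 (SE), edgeR adjusted p = 0.00723). Among 14 neighbours and antisense genes tested, 3 rose and 3 fell, where 21.1% of all genes rose and 15.5% fell. FAM84B (a gene in the same chromosomal region as MYC) fell by 0.75 and SGSM2 (beside MNT) fell by 0.63 on the log2 scale. RAB24, which shares a strand and an overlap with MXD3, rose by 0.59 on the log2 scale. Strandedness of counting is not given, so reads where genes overlap cannot be assigned with certainty.

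In the extended network of 6 genes, around the MAX-like protein MLX, 2 rose and none fell with Nexturastat A. Of all genes tested, 21.1% rose and 15.5% fell. The list median of log2 fold change was 0.40, against 0.03 over all genes tested. ARRDC4, an arrestin-domain gene turned on by MLX dimers with glucose, stood at 69.7 and 21.9 CPM in NextA, against 4.73 and 2.93 CPM in Ctrl. Its log2 fold change was 3.56 ± 0.71 (SE, edgeR adjusted p = 0.0266). Both NextA libraries were high, 1 of them more than the other. MLXIPL, the glucose-sensing partner of MLX, stood at 6.33 and 5.54 CPM in NextA, against 3.75 and 2.64 CPM in Ctrl (log2 fold change 0.87, edgeR adjusted p = 0.0387). TXNIP, the best known target of these dimers, stood at 1847 and 508 CPM in NextA, against 362 and 256 CPM in Ctrl, and did not pass the test (edgeR adjusted p = 0.106).

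Genes that MYC is known to raise moved in both directions, where 21.1% of all genes rose and 15.5% fell. Of 31 nucleolar and ribosome assembly genes tested, 4 rose and 3 fell, with a median log2 fold change of 0.01 against 0.03 over all genes. RRP9 (log2 fold change 0.70) and the rRNA methyltransferase gene FBL (0.63) rose, and UBTF (-0.92), a factor of RNA polymerase I transcription, and TCOF1 (-0.79) fell. Of 14 nucleotide and polyamine genes, 2 rose and 3 fell (median -0.28). ODC1, the first enzyme of polyamine synthesis and a classic MYC target, rose by 0.78 and DCTPP1 rose by 0.65, while the uracil glycosylase gene UNG fell by 0.87 and CAD, the start of pyrimidine synthesis, fell by 0.78 on the log2 scale. Of 27 metabolic, mitochondrial and growth genes, 3 rose and 4 fell (median -0.25). The hexokinase gene HK2 rose by 1.05, and SHMT1 fell by 1.28 and CDK4 fell by 0.71 on the log2 scale. CCND2 had the largest called rise of that list, at 0.224 and 0.191 CPM in NextA, against 0.0324 and 0.0320 CPM in Ctrl, which is close to the limit of detection.

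Of genes that MYC is known to repress, more rose than fell. Of 11 tested, 7 rose and none fell, against 21.1% and 15.5% of all genes, with a median log2 fold change of 1.04. CLU, which encodes the chaperone clusterin, stood at 484 and 312 CPM in NextA, against 67.5 and 65.2 CPM in Ctrl (log2 fold change 2.56 ± 0.22 (SE), edgeR adjusted p = 0.000742). CDKN1A, which encodes the cell cycle inhibitor p21, stood at 169 and 220 CPM in NextA, against 40.2 and 43.3 CPM in Ctrl (log2 fold change 2.20 ± 0.16 (SE), edgeR adjusted p = 0.00047). Both NextA libraries were far above both Ctrl libraries in these genes. Without Ctrl replicate 2, 4 of the list were higher.

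Lists of the machinery that MYC and MXD proteins recruit had medians under 0. Over all genes, 21.1% rose and 15.5% fell, with a median of 0.03. Of 18 MYC cofactors, none rose and 10 fell (median -0.54). They included SMARCB1, a core subunit of SWI/SNF remodelling complexes, at 34.7 and 46.9 CPM in NextA, against 77.7 and 80.1 CPM in Ctrl (log2 fold change -0.97, edgeR adjusted p = 0.00596). BPTF, the large subunit of the NURF remodeller, fell by 0.81 on the log2 scale. Of 20 SIN3 and NCOR corepressor genes, 1 rose and 7 fell (median -0.21). NCOR1 stood at 81.3 and 110 CPM in NextA, against 182 and 175 CPM in Ctrl, and fell by 0.93, ARID4A fell by 0.90 and SAP30 rose by 0.65 on the log2 scale. Of 23 genes that act on MYC stability and phosphorylation, 1 rose and 4 fell (median -0.21). SKP2, a ubiquitin ligase subunit that acts on MYC, stood at 23.5 and 37.0 CPM in NextA, against 65.2 and 68.9 CPM in Ctrl, and fell by 1.17, the PP2A inhibitor gene SET fell by 0.79 and the ligase gene STUB1 rose by 0.59 on the log2 scale.

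These list counts depended on the libraries used and on the scaling. Without Ctrl replicate 1 or 2, the cofactors that fell numbered 1 and 2, and the corepressors that fell numbered 0 and 1, and none of the extended network rose. Without NextA replicate 2, falls numbered 9 in the nucleolar list, 9 in the nucleotide list, 11 in the metabolic list and 12 in the turnover list, and metabolic genes that rose numbered 6. With trends on GC content and length removed, the median over all genes was -0.23 and the share of called genes that were higher was 33.1%, against 57.6%. Under that setting 16 cofactors, 12 corepressors and 13 nucleolar genes fell, no nucleolar gene rose, 1 gene of the extended network rose and 3 fell (1 fell by DESeq2 and with no filter on low counts), and FBL (-0.0093) and SAP30 (-0.0020) turned to values near 0.

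**Figure D4:**
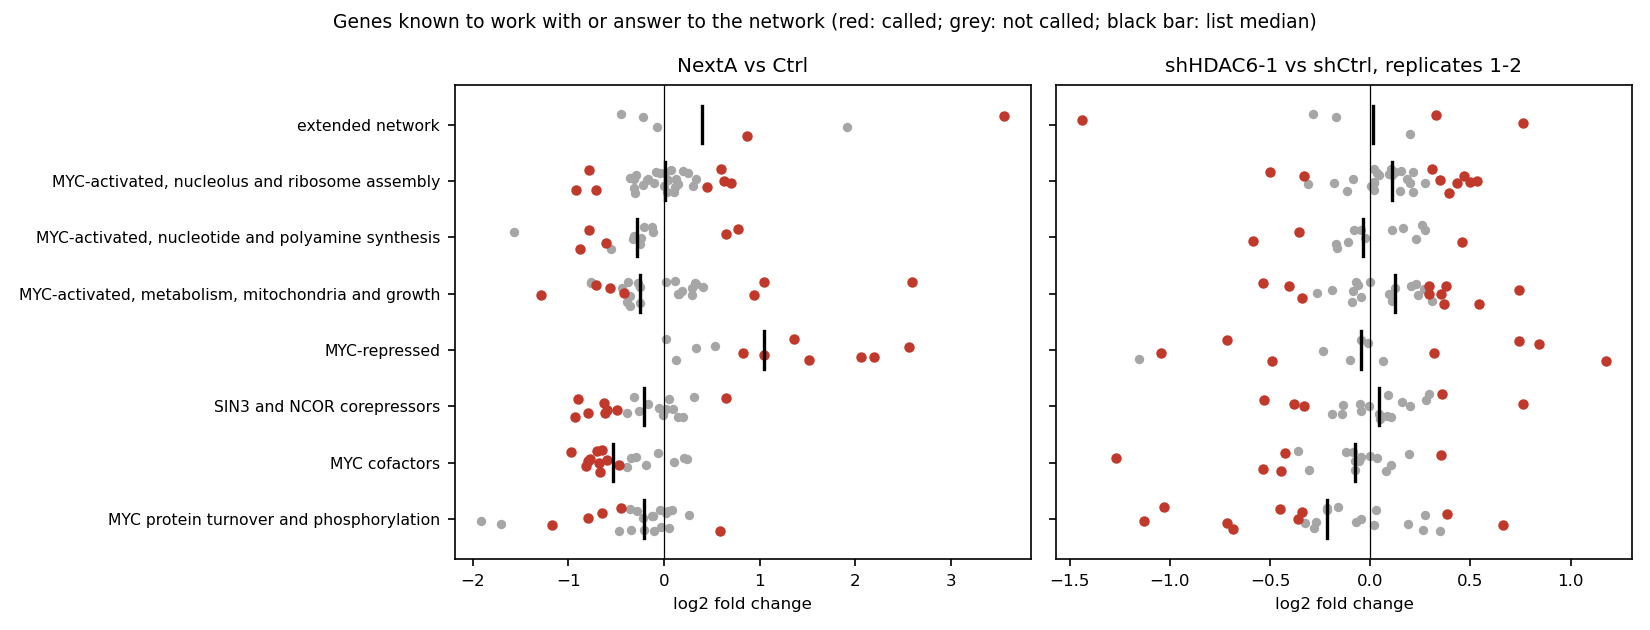
Log2 fold change of every tested gene of 8 lists, the neighbours left out, for NextA against Ctrl and for shHDAC6-1 against shCtrl in replicates 1 and 2. The panels have different scales. Points are genes, red where the adjusted p was under 0.05, and black bars are list medians, which reached 1.04 for MYC-repressed genes and -0.54 for MYC cofactors with NextA.

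In replicates 1 and 2 of the hairpin experiment, MAX and MXD3 fell with each hairpin against HDAC6, and MXD1 and the MYC paralogs MYCN and MYCL rose. MAX, on chromosome 14 (65006174 to 65102695, minus strand), stood at 24.0 and 25.7 CPM in shHDAC6-1 and at 25.0 and 24.6 CPM in shHDAC6-2, against 49.8 and 44.8 CPM in shCtrl. All 4 hairpin libraries lay below both shCtrl libraries. The fibroblast sum was 95.7 to 97.0 CPM in shHDAC6-1 and 100.1 to 107.6 CPM in shHDAC6-2, against 91.9 to 100.7 CPM in shCtrl. The leukocyte sum was 16.3 to 17.7 CPM in shHDAC6-1 and 15.1 to 17.5 CPM in shHDAC6-2, against 26.0 to 28.1 CPM in shCtrl. The epithelial sum was 245 to 277 CPM in shHDAC6-1 and 253 to 273 CPM in shHDAC6-2, against 331 to 365 CPM in shCtrl. Neither the leukocyte nor the epithelial sum overlapped between hairpin lines and shCtrl. The mesenchymal and basal-like sum was 768 to 800 CPM in shHDAC6-1 and 716 to 745 in shHDAC6-2, against 670 to 737 in shCtrl. ESR1, PGR and ERBB2 together gave 61.6 to 66.1 CPM in shHDAC6-1 and 64.1 to 73.6 in shHDAC6-2, against 62.5 to 80.0 in shCtrl. The part of these sums in the changes was not tested. MAX fell by 0.91 ± 0.13 (SE, edgeR adjusted p = 1.32e-05) with shHDAC6-1 and by 0.89 ± 0.13 (SE, edgeR adjusted p = 1.58e-05) with shHDAC6-2, on the log2 scale. FNTB, which overlaps MAX on the other strand, stood at no more than 0.618 CPM in these libraries and was not called.

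Among the antagonists, MXD1 stood at 15.7 and 13.7 CPM in shHDAC6-1 and at 15.4 and 14.2 CPM in shHDAC6-2, against 7.78 and 7.62 CPM in shCtrl. Its log2 fold change was 0.95 ± 0.15 (SE, edgeR adjusted p = 4.76e-05) with shHDAC6-1 and 0.98 ± 0.15 (SE, edgeR adjusted p = 3.68e-05) with shHDAC6-2. MXD3 stood at 15.3 and 13.8 CPM in shHDAC6-1 and at 12.6 and 13.9 CPM in shHDAC6-2, against 21.7 and 24.5 CPM in shCtrl. So every hairpin library was above shCtrl for MXD1 and below it for MXD3. MXD3 fell by 0.65 ± 0.14 (SE, edgeR adjusted p = 0.00145) and by 0.77 ± 0.14 (SE, edgeR adjusted p = 0.000302) on the log2 scale. PRELID1, which overlaps MXD3 on the other strand, moved the other way. PRELID1, a mitochondrial lipid transfer gene, stood at 248 and 305 CPM in shHDAC6-1 and at 252 and 294 CPM in shHDAC6-2, against 75.9 and 80.1 CPM in shCtrl (log2 fold changes 1.85 and 1.84).

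MXI1, MXD4 and MNT did not pass the test with either hairpin. MXI1 stood at 59.0 and 56.5 CPM in shHDAC6-1 and at 58.7 and 53.5 CPM in shHDAC6-2, against 49.7 and 46.4 CPM in shCtrl, so its groups did not overlap (log2 fold changes 0.29 and 0.26, edgeR adjusted p = 0.0715 and 0.109). MXD4 had log2 fold changes of -0.03 (95% interval -0.28 to 0.23) and 0.01 (-0.25 to 0.26). MNT had -0.15 (-0.44 to 0.14) and 0.05 (-0.24 to 0.34).

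MYC itself stood at 359 and 348 CPM in shHDAC6-1 and at 355 and 390 CPM in shHDAC6-2, against 435 and 472 CPM in shCtrl. All 4 hairpin libraries were below both shCtrl libraries. It fell by 0.34 ± 0.11 (SE, edgeR adjusted p = 0.0210) on the log2 scale with shHDAC6-1, and its log2 fold change was -0.25 ± 0.11 (SE, edgeR adjusted p = 0.0950) with shHDAC6-2. MYCN stood at 8.47 and 8.48 CPM in shHDAC6-1 and at 6.82 and 8.05 CPM in shHDAC6-2, against 4.19 and 5.44 CPM in shCtrl. It rose by 0.84 ± 0.18 (SE, edgeR adjusted p = 0.00122) and 0.66 ± 0.18 (SE, edgeR adjusted p = 0.00850) on the log2 scale. MYCL stood at 8.22 and 7.505 CPM in shHDAC6-1 and at 7.64 and 8.30 CPM in shHDAC6-2, against 5.18 and 5.85 CPM in shCtrl. It rose by 0.53 ± 0.17 (SE, edgeR adjusted p = 0.0219) and 0.57 ± 0.17 (SE, edgeR adjusted p = 0.0159) on the log2 scale. The rise of these paralogs was small beside MYC, since MYC remained at least 96.3% of the family sum per kilobase.

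Of the 9 members, 6 were called with shHDAC6-1, where 30.5% of 17702 genes were, and 5 with shHDAC6-2, where 27.6% were. With shHDAC6-1, 3 were higher (15.3% of genes) and 3 lower (15.2% of genes). With shHDAC6-2, 3 were higher (14.4% of genes) and 2 lower (13.2% of genes). The hairpins share their shCtrl libraries, so the 2 sets of values are not independent. Set against each other, shHDAC6-1 and shHDAC6-2 differed in no member and in 0 of 17702 genes by edgeR (percent called 0), and 1107 genes had an unadjusted p under 0.05. Other tests of the same counts, by DESeq2 and limma voom, called 0 and 1. The largest member value between them was that of MNT, a log2 difference of -0.20 (95% interval -0.49 to 0.09).

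These calls depended on the setting to different degrees. The calls of MAX, MXD1 and MXD3 held with each of the 6 libraries left out in turn. The shHDAC6-1 call of MYC was lost without shCtrl replicate 2 or either shHDAC6-1 library, and the shHDAC6-1 call of MYCL without shCtrl replicate 1 or either shHDAC6-1 library. The shHDAC6-2 calls of MYCN and MYCL were lost without shCtrl replicate 1 or shHDAC6-2 replicate 2. MXI1 was called with shHDAC6-1 by DESeq2, with trends on GC content and length removed, with a replicate block and without shCtrl replicate 1. With those trends removed, MXD4 was called with shHDAC6-1, and MXI1 and MNT with shHDAC6-2. MYC was called with shHDAC6-2 at a minimum mean CPM of 5 and under total count scaling. In a fit of all 9 hairpin libraries no member was called for either hairpin.

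**Figure D5:**
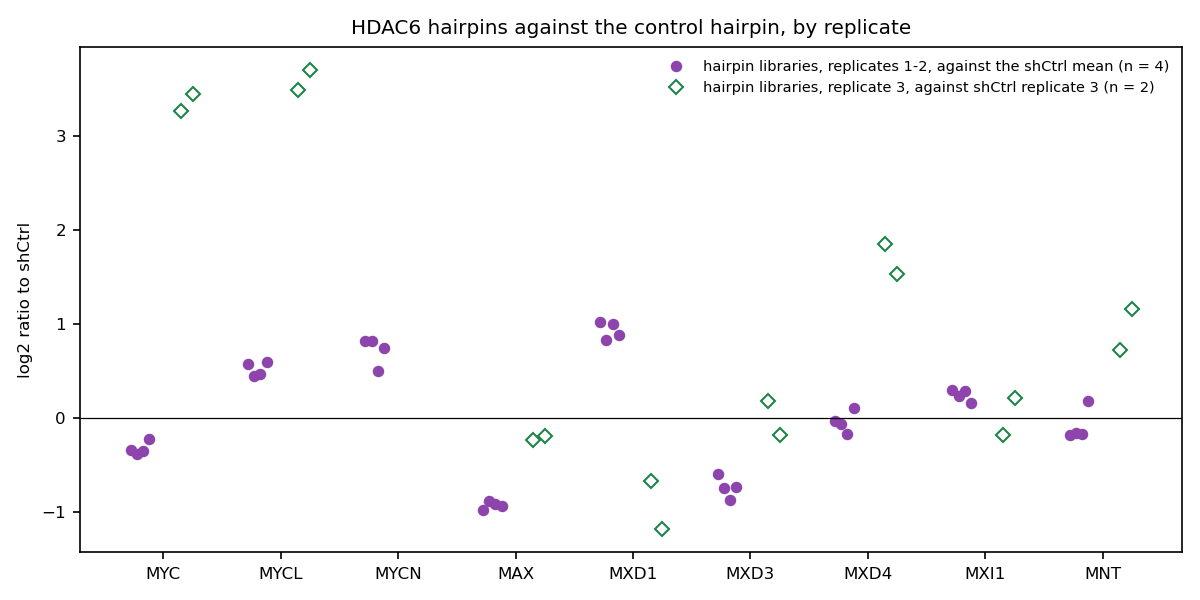
Log2 ratio of each network gene to shCtrl, for hairpin libraries of replicates 1 and 2 (n = 4, against the mean of their 2 shCtrl libraries) and of replicate 3 (n = 2, against its single shCtrl library). Points are libraries, and the MYC points lie below 0 in replicates 1 and 2 and at 3.26 and 3.44 in replicate 3.

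Replicate 3 gave other values, with 1 library a group and thus no replicate check. Its ratios have exact binomial intervals, which cover counting error alone. MYC stood at 547 CPM in shHDAC6-1 and 621 CPM in shHDAC6-2, against 57.3 CPM in shCtrl, ratios of 9.56 (95% interval 9.23 to 9.89) and 10.8 (10.5 to 11.2). MYCL had 250 and 205 counts in these hairpin libraries, against 20 counts in shCtrl, ratios of 11.2 (7.08 to 18.6) and 12.97 (8.18 to 21.7). MXD4 stood at 187 and 150 CPM, against 51.9 CPM in shCtrl, ratios of 3.60 (3.46 to 3.74) and 2.88 (2.77 to 3.01). Both hairpin libraries were higher in these 3 genes, and MYC had been below shCtrl in replicates 1 and 2.

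MXD1 stood at 14.7 and 10.2 CPM in shHDAC6-1 and shHDAC6-2 of replicate 3, against 23.3 CPM in shCtrl, ratios of 0.629 and 0.440, where it was above shCtrl in replicates 1 and 2. MAX had ratios of 0.852 and 0.878, MXI1 0.884 and 1.16, MXD3 1.13 and 0.883, and MNT 1.65 and 2.23. MYCN had 0 and 10 counts, against 0 in shCtrl. On TMM scaling, 3 members were past 2-fold with shHDAC6-1 (63.5% of 16749 genes) and 5 with shHDAC6-2 (60.9% of genes). MYCN was too low to be counted among them. With total counts in place of TMM, the MNT ratio with shHDAC6-2 was 1.94, which is not past 2-fold. With shHDAC6-1, 3 members were higher (31% of genes) and 0 lower (32.5% of genes), and with shHDAC6-2, 4 were higher (28.7% of genes) and 1 lower (32.3% of genes). CDKN2A stood at 8.84 and 29.1 CPM in the 2 hairpin libraries and at 0 in shCtrl of replicate 3, and the epithelial sum was 3234 and 2364 CPM, against 1207 CPM in shCtrl. The fibroblast sum was 22.3 and 26.6 CPM, against 4.40 CPM in shCtrl, and the leukocyte sum was 425 and 316 CPM, against 91.9 CPM in shCtrl. The mesenchymal and basal-like sum was 2387 and 2418 CPM, against 2692 CPM in shCtrl. ESR1, PGR and ERBB2 together gave 140 and 138 CPM, against 69.1 CPM in shCtrl. The part of these in the ratios was not tested. The 2 hairpin libraries of replicate 3 correlated at 0.985 with each other across genes.

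Genes of the lists around the network were called in both directions in replicates 1 and 2. List medians ran from -0.21 to 0.12 with shHDAC6-1 and from -0.18 to 0.18 with shHDAC6-2, against -0.02 and 0.00 over all genes. Of all genes, 15.3% were higher and 15.2% lower with shHDAC6-1, and 14.4% higher and 13.2% lower with shHDAC6-2. Changes in the rest of this account of the lists are on the log2 scale, with shHDAC6-1 before shHDAC6-2. In the extended network of 6 genes, ARRDC4 rose by 0.76 and 0.73 on the log2 scale with shHDAC6-1 and shHDAC6-2, MLXIPL fell by 1.44 and 1.31, and TXNIP rose by 0.33 with shHDAC6-1. Of 31 nucleolar genes, 7 rose and 2 fell with shHDAC6-1, and 4 rose and 1 fell with shHDAC6-2. UTP20, a part of the small subunit processome, rose by 0.53 and 0.67, and the rRNA methyltransferase gene NOP2 fell by 0.50 and 0.43. MRTO4 rose by 0.50 and RRP9 fell by 0.33 with shHDAC6-1, and IMP4 rose by 0.47 with shHDAC6-2. With trends on GC content and length removed, 20 nucleolar genes rose and 1 fell with shHDAC6-1, and the share of its called genes that were higher was 61.1%, against 50.1%. With total counts in place of TMM that share was 36.9% for shHDAC6-1, and 35.8% against 52.1% for shHDAC6-2.

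Other MYC-activated genes were again mixed. Of 14 nucleotide and polyamine genes, 1 rose and 2 fell with shHDAC6-1, and 2 rose and 2 fell with shHDAC6-2. ODC1 rose by 0.46 and 0.41, the nucleoside transporter gene SLC29A2 fell by 0.58 and 0.42, and IMPDH2, of guanine nucleotide synthesis, fell by 0.36 and 0.31, and SRM rose by 0.40 with shHDAC6-2. Of 27 metabolic and growth genes, 7 rose and 3 fell with shHDAC6-1, and 4 rose and 3 fell with shHDAC6-2. CCND2, which encodes cyclin D2, stood at 293 and 279 CPM in shHDAC6-1 and at 375 and 348 CPM in shHDAC6-2, against 156 and 192 CPM in shCtrl (log2 fold changes 0.74 and 1.09). The transferrin receptor gene TFRC rose by 0.54 and 0.56, while the telomerase gene TERT fell by 0.54 and 0.63 and PRMT3 fell by 0.41 and 0.64.

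Of 13 MYC-repressed genes, 4 rose and 3 fell with shHDAC6-1, and 3 rose and 2 fell with shHDAC6-2. CDKN1A moved opposite to its value with Nexturastat A, at 56.0 and 61.6 CPM in shHDAC6-1 and at 51.6 and 59.0 CPM in shHDAC6-2, against 122 and 124 CPM in shCtrl, and fell by 1.04 and 1.12 on the log2 scale. CDKN1B, which encodes the inhibitor p27, stood at 70.7 and 74.0 CPM in shHDAC6-1 and at 64.1 and 64.3 CPM in shHDAC6-2, against 33.9 and 31.2 CPM in shCtrl (log2 fold changes 1.18 and 1.02). All hairpin libraries were below shCtrl for the one inhibitor and above it for the other. CDKN1C rose by 0.84 and 0.76, THBS1 fell by 0.72 with shHDAC6-1 and CLU fell by 0.47 with shHDAC6-2. In replicate 3, CDKN1A stood at 639 and 331 CPM in shHDAC6-1 and shHDAC6-2, against 44.4 CPM in shCtrl.

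Cofactors and regulators of MYC followed. Of 18 cofactors, 1 rose and 4 fell with shHDAC6-1, and 2 rose and 3 fell with shHDAC6-2. WDR5 fell by 0.53 and 0.52, the acetyltransferase gene KAT5 rose by 0.35 and 0.51, and EP400 rose by 0.45 with shHDAC6-2. Of 20 corepressor genes, 2 rose and 3 fell with shHDAC6-1, and 1 rose and 1 fell with shHDAC6-2. BRMS1L rose by 0.76 and 0.47 and SAP30 fell by 0.38 and 0.55, while SAP18 rose by 0.36 and NCOR1 fell by 0.53 with shHDAC6-1.

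Of 23 genes of MYC turnover and phosphorylation, 2 rose and 7 fell with shHDAC6-1, and 3 rose and 5 fell with shHDAC6-2. GSK3A, a kinase of the family that marks MYC for degradation, stood at 56.6 and 53.8 CPM in shHDAC6-1 and at 56.2 and 58.9 CPM in shHDAC6-2, against 121 and 125 CPM in shCtrl (log2 fold changes -1.13 and -1.06). PIM2 fell by 1.03 and 0.83, PPP2R5A rose by 0.66 and 0.58, FBXO28 rose by 0.39 with shHDAC6-1 and FBXW7, the ligase that reads that mark, rose by 0.37 with shHDAC6-2. Of 15 neighbours and antisense genes, 3 rose and 3 fell with shHDAC6-1, and 2 rose and 2 fell with shHDAC6-2. LMAN2, near MXD3, rose by 0.82 and 0.88, MFSD2A, near MYCL, fell by 1.05 and 0.97, ZFYVE28 fell by 0.45 with shHDAC6-1 and FAM84B fell by 0.34 with shHDAC6-2. Counts and medians describe these lists and give no test of them. With 1 library left out, the shHDAC6-1 counts of nucleolar genes ran from 2 to 7 higher and 0 to 3 lower, and those of metabolic genes from 2 to 10 higher and 0 to 3 lower. The lowest of these came without shHDAC6-1 replicate 2, and both higher counts were at most 4 without shCtrl replicate 2 or shHDAC6-1 replicate 1. With shHDAC6-2, nucleolar genes ran from 2 to 6 higher and metabolic genes from 3 to 6 higher.

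With HPOB and Tubastatin A, no member passed the test. MYC stood at 240, 229 and 273 CPM in HPOB and at 210, 272 and 244 CPM in Tubastatin A, against 198, 185 and 194 CPM in DMSO. All 6 libraries with a compound lay above all 3 DMSO libraries. The log2 fold changes were 0.35 ± 0.11 (SE, 95% interval 0.11 to 0.59, edgeR adjusted p = 0.371) with HPOB and 0.34 ± 0.11 (SE, 95% interval 0.10 to 0.58, edgeR adjusted p = 0.857) with Tubastatin A. The compounds share the DMSO libraries. In these comparisons 0.0261% of 15338 genes (4) were called with HPOB and 0 with Tubastatin A by edgeR, with 1588 and 757 genes at an unadjusted p under 0.05. DESeq2 called 120 and 23 genes and limma voom 51 and 21.

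MNT stood at 30.9, 28.6 and 25.5 CPM in HPOB and at 37.9, 33.2 and 37.3 CPM in Tubastatin A, against 31.6, 34.5 and 33.8 CPM in DMSO. The HPOB libraries lay below the DMSO libraries and the Tubastatin A libraries overlapped them. Its log2 fold changes were -0.25 (edgeR adjusted p = 0.477) and 0.12 (edgeR adjusted p = 0.864). The remaining tested members had log2 fold changes of -0.30 to 0.18 with HPOB and of -0.01 to 0.57 with Tubastatin A, with MYCL at the far end of each range, at 8 to 44 counts a library for the compounds. No gene of the 9 lists was called with either compound.

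Nexturastat A, HPOB and Tubastatin A are hydroxamates, a group that binds the zinc ion in the catalytic site of the deacetylase. HPOB and Tubastatin A were set against each other at the same day but at doses not given, so their values stand side by side as these libraries give them. Tubastatin A and HPOB differed in no member and in no gene by edgeR, DESeq2 or limma voom after adjustment, with 481 genes at an unadjusted p under 0.05 by edgeR. For MYC the log2 difference was -0.02 (95% interval -0.26 to 0.22). For MNT it was 0.37 (95% interval 0.13 to 0.60, edgeR adjusted p = 0.996), and all 3 Tubastatin A libraries lay above all 3 HPOB libraries.

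The effect of Nexturastat A against Ctrl was then compared with that of HPOB and of Tubastatin A against DMSO, as a difference of effects in one model. Stock differed between these experiments and the doses are given for Nexturastat A alone, so neither can be told apart from the compound. For MYC the NextA effect exceeded the HPOB effect by 1.75 ± 0.18 (SE, edgeR adjusted p = 1.15e-05) and the Tubastatin A effect by 1.78 ± 0.18 (SE, edgeR adjusted p = 8.76e-06) on the log2 scale. MYC in DMSO already stood at 192 CPM, close to the 189 CPM of NextA. For MYCL the differences were 2.72 ± 0.59 (SE, edgeR adjusted p = 0.00532) and 1.86 ± 0.57 (SE, edgeR adjusted p = 0.0319), and the second was lost in 8 of the settings that left out 1 library. For MXD3 they were -0.92 ± 0.21 (SE, edgeR adjusted p = 0.00847) and -0.86 ± 0.21 (SE, edgeR adjusted p = 0.0117), both lost without Ctrl replicate 1 and the second also without NextA replicate 1. MXD1 differed from the Tubastatin A effect, by -0.89 ± 0.22 (SE, edgeR adjusted p = 0.0114), and against the HPOB effect its value was -0.63 ± 0.22 (SE, edgeR adjusted p = 0.0622), a call in 5 of the other settings. In all, 3 of 8 members differed against HPOB (17.5% of 17083 genes) and 4 of 8 against Tubastatin A (19.1%). Both sets of differences share the NextA, Ctrl and DMSO libraries, so they are not independent. Against HPOB 2 differences were positive (9.81% of genes) and 1 negative (7.69% of genes), and against Tubastatin A 2 were positive (10.6% of genes) and 2 negative (8.46% of genes). Positive values made up 56.1% and 55.6% of the differences called over all genes, and 25.7% and 27.1% with trends on GC content and length removed.

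Control libraries of the stocks differed in more genes than any treatment tested within an experiment. DMSO against Ctrl, both labelled as vehicle, gave 7 of 8 members called, where 62.9% of 17976 genes were called, with 2 higher (30.6% of genes) and 5 lower (32.3% of genes). MYC stood higher in DMSO by 2.04 ± 0.08 (SE, edgeR adjusted p = 1.33e-13) on the log2 scale. MYCL fell by 1.67, MXI1 by 1.15, MXD1 by 0.85, MXD4 by 0.68 and MNT by 0.40 on that scale, and MXD3 rose by 0.32. The MXD3 call was kept in 12 of 16 other settings. The MNT call was kept in 15 of 16, and lost without Ctrl replicate 1. MAX, at 0.11 (95% interval -0.08 to 0.29), was not called.

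In shCtrl replicates 1 and 2 against Ctrl, 7 of 9 members were called (76.5% of genes), 4 higher (41.5% of genes) and 3 lower (34.9% of genes), and MYC was higher by 3.28 ± 0.09 (SE, edgeR adjusted p = 2.04e-16) on the log2 scale. MYCN had 607 counts in shCtrl and 0 in Ctrl, at least 201-fold higher against a floor of 3 counts over the Ctrl group. MYCL rose by 1.74 and MXD1 fell by 1.74 on the log2 scale. MXD4 (0.27), MXI1 (-0.27) and MNT (-0.29) had smaller log2 values, against a median of 0.14 over all genes, and each lost its call in at least 4 of the other settings. In shCtrl replicates 1 and 2 against DMSO, 7 of 9 were called (77.2% of genes), 5 higher (42.5% of genes) and 2 lower (34.7% of genes). MYC rose by 1.24, MYCL by 3.41, MXD4 by 0.95 and MXI1 by 0.88 on the log2 scale, while MXD1 fell by 0.90 and MAX by 0.25, and MYCN was at least 168-fold higher. The MAX call against DMSO was kept in 11 of 16 other settings. The MXD4 call against DMSO was kept in 15 of 16, and lost with trends on GC content and length removed (0.065). With trends on GC content and length removed, the median over all genes was -0.30 against Ctrl and -0.31 against DMSO. MXD4 was then -0.71 against Ctrl, and the share of called genes that were higher was 38.4% against Ctrl, where it had been 54.3%, and 39.0% against DMSO, where it had been 55.0%.

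Genes with a pattern most like that of MYC were ranked by Pearson's r of log2 CPM over the 22 libraries, among 11229 genes, as a description. HINT2 (0.953), SF3B5 (0.943), CPT1C (0.941), SELM (0.935) and RAB24 (0.932) led. The points share their experiments and groups, and the values include the differences between experiments. Over the deviations from the group means in 19 libraries, the leading genes were SLC2A11 (0.937), CLK3 (0.911), ANKRD13D (0.902), COQ9 (0.900) and C11orf24 (0.896), with no gene in both lists of 5. For MXI1 the deviations lay closest to those of TXNIP (0.955), the target of MLX dimers named above, and TSC22D1 (0.949). For MXD4 they lay closest to TNK2 (0.938) and for MAX to C2orf47 (0.922). No network gene was among the leading genes of another.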

How the data were processed

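RNA was sequenced from 22 libraries, made from total RNA with a Vazyme kit per the labels. The authors deposited 1 table a library, with the raw count of each gene symbol. Per the submitters' processing notes, the authors used Trim Galore 0.6.7, STAR 2.7.9a, featureCounts 2.0.3, DESeq2 1.30.1 and GRCh38. Neither the annotation used for counting nor its strand setting is given in the sources used here. Genes with a count of 2 outnumbered those with a count of 1 by 2.09 to 3.28 times in every library, so counts may step by read pairs and counting intervals may be too narrow. Without molecular identifiers, reads are not independent molecules, and intervals and floors cover counting error only. Per-sample columns of other samples numbered 0.

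Each experiment was fitted on the deposited counts with edgeR 4.0.16 in R 4.3.3 (TMM factors, filterByExpr with minimum count 10 and total 15, robust quasi-likelihood test), over all genes, and genes whose p, adjusted by Benjamini-Hochberg, was under 0.05 are described as called, as rising or as falling. The NextA and Ctrl groups, replicates 1 and 2 of the hairpins, and HPOB, Tubastatin A and DMSO had a fit each. Differences of effects came from 1 joint fit of 13 libraries, and control groups from 1 fit of Ctrl, DMSO and shCtrl replicates 1 and 2. CPM use TMM factors over all 22 libraries. Log2 fold changes are those of the fit. Of 26485 symbols, 23899 matched GENCODE release 29, which gave positions and the length of the longest transcript. Upstream sequences come from RefSeq (GRCh38.p14). The scripts were tested on simulated data.

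The members, lists and tests were chosen with earlier results of these data known. All 9 members are named, with the 2 highest and 2 lowest log2 fold changes among called genes of a list, and HDAC6. A gene that this rule would name is not reported here. TXNIP with NextA, RAB24, FNTB, THBS1 and the replicate 3 level of CDKN1A are given outside that rule or after their values were seen. For genes most like a member, the rule took the 5 highest r for MYC and 2 for each other member, among genes whose log2 CPM (prior count 2) averaged 2 or more. Those not printed had r between 0.702 and 0.976. Alternatives were DESeq2 1.42.0, its size factors in edgeR, no filter, a minimum mean CPM of 5, voom with quality weights in limma 3.58.1, removal of trends on GC content and length (splines, 3 degrees of freedom), a replicate block, 2 groups alone, all 9 hairpin libraries and leaving out each library. Total counts in place of TMM, and HPOB replicate 3 and Tubastatin A replicate 2 left out together, were added after seeing the data.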

Additional observations from a re-analysis of the deposited data

Results flagged for a closer look

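Effects of the same kind of treatment differed between experiments by a test of the difference itself for 7 member values. They were 3 of 8 members against HPOB, where 17.5% of 17083 genes differed, and 4 of 8 against Tubastatin A, where 19.1% did. Both sets come from MYC, MYCL, MXD1 and MXD3 alone. They share the NextA, Ctrl and DMSO libraries, so they are not independent. Stock differed between these experiments and doses are given for Nexturastat A alone, so neither can be told apart from the compound. On the log2 scale, the effect of Nexturastat A minus that of HPOB was 1.75 for MYC, 2.72 for MYCL and -0.92 for MXD3. Minus that of Tubastatin A, it was 1.78 for MYC, 1.86 for MYCL, -0.89 for MXD1 and -0.86 for MXD3 (edgeR, adjusted p under 0.05 for each). The MYCL call against Tubastatin A was kept in 12 of 20 other settings. The MXD3 calls were kept in 20 of 21 against HPOB and in 19 of 21 against Tubastatin A. The remaining calls were kept in all of them.

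Hairpin replicate 3 ran opposite to replicates 1 and 2 in 2 members, in every library of each, and this difference was not tested. For MYC the log2 ratio to shCtrl in replicate 3 was 3.26 with shHDAC6-1 and 3.44 with shHDAC6-2, where all 4 libraries of replicates 1 and 2 were below shCtrl. For MXD1 it was -0.67 with shHDAC6-1 and -1.19 with shHDAC6-2, where all 4 were above shCtrl.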

How the results depend on the processing

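The calls of MYC and MYCL with NextA, and of MAX, MXD1 and MXD3 with the hairpins, were kept in every setting run within the same libraries. Numbers are log2 values unless called genes or members are counted, and the cause of a change was not tested. With 2 libraries a group, leaving 1 out assumes that the lone library varies like the other groups. The replicate numbers did not pair libraries (same-numbered correlations of -0.073 to 0.105), and the replicate block gave 7 genes for HPOB and 4 members for shCtrl against Ctrl. Of 1753 member values in other settings, 1562 kept their direction and side of the threshold, 77 lost their call, 36 gained one and 78 changed sign, 72 of these with no call under either setting.

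Counts. NextA against Ctrl gave 3586 genes at a minimum mean CPM of 5, and 2 to 6 members and 1781 to 8922 genes with 1 library left out. With all 9 hairpin libraries, with or without replicate block, members and genes called were 0 for both hairpins. With shHDAC6-1 and 1 library left out, genes ranged from 3160 to 5999. With shHDAC6-2, genes were 7439 with GC and length trends removed, and members 3 to 5 with 1 library left out. Between hairpins, genes were 12 with no filter, 1 by voom, 57 with 2 groups alone and 1 to 66 with 1 library left out. HPOB gave 120 genes by DESeq2, 14 with no filter, 2 at mean CPM 5, 51 by voom, 14 with GC and length trends removed, 15 with 2 groups alone, 20 with HPOB replicate 3 and Tubastatin A replicate 2 left out, and 0 to 78 with 1 library left out. Tubastatin A gave 23, 21 and 1 by DESeq2, voom and GC removal. NextA minus HPOB gave 5 members and 5710 genes with GC removal and 1603 to 3950 genes with 1 library left out. NextA minus Tubastatin A gave 5847 genes with GC removal, and 2 to 6 members and 1857 to 4262 genes with 1 library left out. At mean CPM 5, shCtrl against Ctrl gave 4 members and against DMSO 4.

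Balance differences with plain CPM sums, MYC alone against the mean antagonist, and MXI1 left out, in that order, were -0.34, -0.42 and -0.18 for shHDAC6-1, -0.29, -0.35 and -0.13 for shHDAC6-2, 2.245, 2.87 and 2.12 for shHDAC6-1 replicate 3, and 2.58, 3.13 and 2.53 for shHDAC6-2 replicate 3. The last pair of settings gave 2.45 and 2.61 for NextA and 1.05 and 0.90 for shCtrl against DMSO. MXI1 left out gave 2.36 for DMSO against Ctrl, and MYC alone gave 3.64 for shCtrl against Ctrl.

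Sign changes of members and named list genes. With GC and length trends removed: MAX -0.18, FBL -0.0093 and SAP30 -0.0020 (NextA), MXD4 0.23, MNT 0.19 and RRP9 0.0096 (shHDAC6-1), MYCL 0.050, MAX 0.046 and MXD4 0.087 (between hairpins), MXD3 -0.052 (Tubastatin A), MAX -0.19 and -0.064 (NextA minus HPOB, minus Tubastatin A), MXD3 -0.97 and MXD4 -0.71 (shCtrl against Ctrl) and MNT -1.05 (shCtrl against DMSO). Between hairpins, MAX was 0.0031 by DESeq2 and by RLE factors, 0.0027 with no filter and 0.0037 with total counts. With shHDAC6-2, MXD4 was -0.0038 with no filter, -0.044 at mean CPM 5 and -0.088 with total counts, and MNT -0.0017 and -0.046 in the last 2. Voom gave MXI1 -0.012 (Tubastatin A). With HPOB replicate 3 and Tubastatin A replicate 2 left out, HPOB gave MXD1 0.039 and MXD3 -0.0093, Tubastatin A gave MXI1 -0.040, and Tubastatin A against HPOB gave MXD3 0.029. At mean CPM 5, NextA minus HPOB gave MNT 0.00016 and shCtrl against DMSO gave MXD3 0.018. Total counts gave MAX 0.031 (shCtrl against Ctrl) and MXD3 0.076 (shCtrl against DMSO).

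With all 9 hairpin libraries, shHDAC6-1 gave MYC 0.38, MXD4 0.64, MNT 0.085, BRMS1L -0.58, CDKN1A 1.39, FBXO28 -0.23, GSK3A 0.13, IMPDH2 0.26, MFSD2A 0.33, NOP2 0.27, PIM2 0.00072, PPP2R5A -0.046, RRP9 0.29, TFRC -0.50, UTP20 -0.85 and WDR5 0.069. The replicate block there gave MYC 0.43, MXD4 0.51, MNT 0.10, BRMS1L -0.66, CDKN1A 0.040, CDKN1B -0.16, FBXO28 -0.55, IMPDH2 0.10, PPP2R5A -0.51, RRP9 0.10, TFRC -0.55 and UTP20 -1.21. With shHDAC6-2 the same 9 libraries gave MYC 0.50, BRMS1L -0.86, CDKN1A 0.61, CDKN1B -0.0069, CLU 0.076, FBXW7 -0.084, IMPDH2 0.24, NOP2 0.20, PPP2R5A -0.12, TFRC -0.55 and UTP20 -0.74. The replicate block there gave MYC 0.55, BRMS1L -0.93, CDKN1B -0.36, CLU 0.050, FBXW7 -0.46, IMPDH2 0.095, PPP2R5A -0.57, TFRC -0.60 and UTP20 -1.12. Between hairpins they gave MXD1 0.15, MXD4 0.15 and MXI1 -0.033, and with the replicate block MYCN -0.83, MXD1 0.11, MXD4 0.12 and MXI1 -0.097.

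With 1 library left out, values that crossed 0 ranged as follows. MXD4 was -0.11 to 0.070 (shHDAC6-1) and -0.14 to 0.12 (shHDAC6-2), and MNT -0.14 to 0.20 (shHDAC6-2). Between hairpins MYCL was -0.076 to 0.047, MAX -0.049 to 0.060, MXD1 -0.10 to 0.084, MXD4 -0.15 to 0.12, MXI1 -0.029 to 0.12 and MNT -0.34 to 0.0026. With HPOB, MXD1 was -0.27 to 0.040, MXD3 -0.0095 to 0.25 and MXD4 -0.11 to 0.0018. With Tubastatin A, MAX was -0.11 to 0.043, MXD4 -0.044 to 0.16 and MXI1 -0.034 to 0.096. Tubastatin A against HPOB gave MYC -0.11 to 0.074 and MXD3 -0.18 to 0.096. NextA minus HPOB gave MXI1 -0.074 to 0.68 and MNT -0.20 to 0.0092. For shCtrl against DMSO, MXD3 was -0.19 to 0.013 and MNT -0.033 to 0.24.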
